A study of Mus musculus with 6 samples.

Results

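Zfp988, Zfp978 and Zfp982 are 3 neighbouring genes on mouse chromosome 4, and they make up 3 of the 53465 genes in the deposited table of RNA-seq counts. They were chosen by their counts, which were much lower in axitinib-resistant than in parental 4T1 cells for all of them. The difference between the lines that picked them is therefore given as a description, without a test. The counts showed a level of 12 to 126 reads per library in parental cells and of at most about 1 read per library in resistant cells. Of the 17 other zinc finger genes around them, 9 had more than 3 counts in a parental library and at most 3 in every resistant library. The share of all genes that meet this rule was not computed, so the 9 cannot be called unusual. The rule needs only 1 parental library above 3, and in Zfp987 and Zfp993 the lines overlapped. A second rule asked for at least 10 counts in every parental library and at most 3 in every resistant one. It held for 6 of the 10 tested zinc finger genes of the cluster, the 3 chosen ones included. It held for 0.627% of all genes tested. Among the 9 genes of the first rule, Rex2, Zfp600, Zfp980 and Zfp986 are 97.6% to 99.3% identical in coding sequence to a chosen gene. For the others of the 9, the closest chosen gene is 91.3% to 95.1% identical. Part of the counts of all 9 may therefore be shared reads. Zfp984 and Zfp933 at the end of the same cluster rose.

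Polyadenylated RNA was sequenced from 4T1, a mouse mammary carcinoma line of BALB/c origin, as the parental line (P, 3 libraries) and as the axitinib-resistant line (AxR, 3 libraries). Axitinib is a small-molecule inhibitor of the receptor tyrosine kinases for vascular endothelial growth factor. AxR cells came from metastatic lesions that arose after surgery in mice given axitinib at 100 mg/kg/day without interruption, and they were then kept in culture with 0.5 μM axitinib for more than 2 months. The growth note is the same for all 6 samples and names 0.5 μM axitinib, while the treatment and dose labels are given for the AxR samples only. AxR is 1 line, with no clone described in the sources used here, and exposure to the drug, growth in the animal, selection of cells and culture history cannot be told apart. No source says whether the 3 libraries of a line were separate cultures, so that p-values measure the spread between these samples, which may be technical. In bulk RNA, fewer cells with a transcript and less transcript per cell cannot be told apart.

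Zinc finger proteins of the KRAB class carry an N-terminal KRAB domain and an array of C2H2 zinc fingers. The fingers bind DNA in a sequence-specific way, and the KRAB domain recruits TRIM28 (KAP1), which brings in SETDB1 and other enzymes that set repressive histone H3K9 methylation. Many of these proteins silence retrotransposons, and their genes stand in clusters of tandem copies that differ between mouse strains. Zfp982 has been studied as a regulator of stem cell genes in mouse embryonic stem cells.

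All 3 genes lie on the plus strand of chromosome 4 (build GRCm38) and are annotated as protein coding. Zfp988 (ENSMUSG00000078498.5) spans chr4:147305674-147333734, Zfp978 (ENSMUSG00000078497.9) spans chr4:147361303-147391004 and Zfp982 (ENSMUSG00000078496.9) spans chr4:147492417-147513486. The gap from Zfp988 to Zfp978 is 27568 bases, that from Zfp978 to Zfp982 is 101412 bases, and the 3 genes together cover 207813 bases. The coding sequence of each is split into 3 segments, in the usual order of this gene family, with the KRAB part ahead of the fingers. A pattern for C2H2 fingers matched 14 times in Zfp988, 7 times in Zfp982 and 3 times in Zfp978, whose coding end is incomplete in the annotation.

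The segment that holds the KRAB match is 127 bases long in each of them, and it is shown because it makes plain how similar the copies are and where a read can tell them apart. Capitals mark the bases that differ from Zfp978. The positions are chr4:147388322-147388448 for Zfp978, chr4:147510753-147510879 for Zfp982, chr4:147328982-147329108 for Zfp988 and, on the minus strand, chr4:147757702-147757828 for Zfp984, a gene of the cluster that rose in AxR. All are GENCODE M21 exons of GRCm38.
Zfp978: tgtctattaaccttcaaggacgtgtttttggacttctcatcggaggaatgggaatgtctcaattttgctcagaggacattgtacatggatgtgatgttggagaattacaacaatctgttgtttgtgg
Zfp982: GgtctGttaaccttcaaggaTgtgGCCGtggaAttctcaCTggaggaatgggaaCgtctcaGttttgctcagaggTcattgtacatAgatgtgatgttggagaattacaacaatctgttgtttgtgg
Zfp988: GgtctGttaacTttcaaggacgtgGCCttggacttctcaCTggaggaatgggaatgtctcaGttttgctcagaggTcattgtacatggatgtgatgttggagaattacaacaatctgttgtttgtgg
Zfp984: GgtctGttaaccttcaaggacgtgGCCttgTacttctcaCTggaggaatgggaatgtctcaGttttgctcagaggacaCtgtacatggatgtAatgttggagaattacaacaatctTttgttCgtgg
Zfp978 differed from Zfp982 at 14 of the 127 bases, from Zfp988 at 10 and from Zfp984 at 13. Zfp982 and Zfp988 differed from each other at 6. The Zfp978 segment was the same, base for base, in Rex2, Zfp600 and Zfp980, 3 genes of the cluster discussed below.

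The starts of Zfp988 and Zfp982 were also much alike, and they are shown because only these 2 members have a RefSeq promoter window here. Each run is the 250 bases before the RefSeq start (GRCm38.p6, plus strand), at chr4:147305354-147305603 for Zfp988 and chr4:147492167-147492416 for Zfp982. Capitals mark runs of at least 16 bases that the pair share.
Zfp988 promoter: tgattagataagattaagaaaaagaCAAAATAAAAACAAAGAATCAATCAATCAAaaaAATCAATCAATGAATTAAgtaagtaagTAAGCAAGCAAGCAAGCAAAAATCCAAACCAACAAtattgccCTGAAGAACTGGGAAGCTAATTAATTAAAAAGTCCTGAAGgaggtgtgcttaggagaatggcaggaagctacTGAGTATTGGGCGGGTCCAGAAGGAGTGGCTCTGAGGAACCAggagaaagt
Zfp982 promoter: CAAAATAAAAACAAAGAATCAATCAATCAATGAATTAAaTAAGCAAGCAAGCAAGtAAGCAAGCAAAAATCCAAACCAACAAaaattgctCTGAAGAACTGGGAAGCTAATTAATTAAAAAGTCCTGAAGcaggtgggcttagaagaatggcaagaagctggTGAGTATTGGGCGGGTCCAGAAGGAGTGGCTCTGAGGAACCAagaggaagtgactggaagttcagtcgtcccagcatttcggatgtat
The pair were 93.4% identical over 212 aligned bases. This likeness was not particular to the pair. The Zfp988 window was 97.5% identical to that of Zfp534 (237 bases), 95.8% to that of Zfp987 and 94.9% to that of Zfp985. The longest shared run, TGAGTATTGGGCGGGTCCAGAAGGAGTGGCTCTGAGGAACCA, holds 42 bases and was found without a mismatch on either strand in 6 of 32851 promoter windows of the same length (0.0183%). All 6 belong to the cluster, namely Rex2, Zfp600, Zfp980, Zfp982, Zfp985 and Zfp988. Each of them was lower in AxR, but Zfp982 and Zfp988 were chosen for that fall. The others had enough counts to be tested in P alone, so a link between the run and the fall was not tested. The fewest mismatches to the run were 1 in Zfp979, which was lower, and in Zfp987 and Zfp534, whose low counts overlapped between the lines. They were 5 in Zfp981, 10 in Zfp984 and Gm13212, and 24 in Zfp933 and Zfp993. The 6 letters GGGCGG inside the run occurred, on either strand, in 10 of the 14 promoter windows of the cluster and in 32.7% of all windows. The RefSeq windows of Zfp981 and Zfp993 start far from the gene starts of the other annotation. These matches describe the letters only, and no binding or methylation was measured here.

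Zfp978 was the most abundant of the 3 genes. Its estimated counts were 91.34, 126.33 and 86.85 in P replicates 1 to 3, and 1.12, 0 and 0 in AxR replicates 1 to 3. Every P library thus lay far above every AxR library, and a single AxR library held any count at all. In CPM, counts scaled to a common library size, the mean was 6.16 ± 0.969 in P and 0.0212 ± 0.0367 in AxR (SD, n = 3 each). The ratio of P to AxR over the summed counts, corrected for library size, was 303 with a 95% interval of 54.0 to 12021.

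Zfp988 had 52.43, 46.73 and 48.79 counts in P and 0, 1 and 0 in AxR. The P libraries were close to each other, with a mean of 3.02 ± 0.268 CPM, and AxR replicate 2 supplied the only AxR read. The ratio was 148, with an interval of 26.1 to 5872.

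Zfp982 had 12, 20 and 20.33 counts in P and 1, 0 and 0 in AxR. It was the lowest of the members, at 1.06 ± 0.298 CPM in P, and P replicate 1 held the fewest counts. The ratio was 51.9, with an interval of 8.91 to 2088. The intervals are exact, cover counting error only and are wide because each rests on 1 AxR read, so that no order of the 3 ratios can be read from them.

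**Figure D1:**
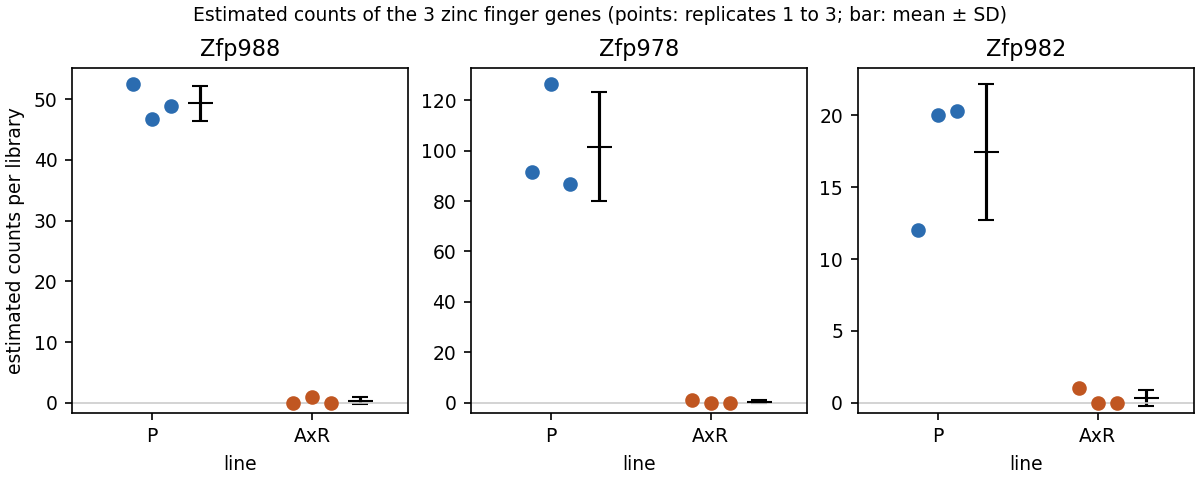
Estimated counts of Zfp988, Zfp978 and Zfp982 in the 3 P and 3 AxR libraries (vertical axis, counts per library, own scale for each gene). Points are replicates 1 to 3 from left to right, and the bar beside them is the mean ± SD. No AxR library holds more than 1.12 counts of any of the genes.

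Per kilobase of exon, the P level was 4.79 ± 0.753 CPM per kb for Zfp978, 1.08 ± 0.0959 for Zfp988 and 0.714 ± 0.200 for Zfp982. In the P libraries, Zfp978 ranged from 4.30 to 5.65 CPM per kb, Zfp988 from 0.969 to 1.14 and Zfp982 from 0.490 to 0.876. The 3 ranges did not overlap. The annotated exons of Zfp978 (1287 bases) stop before the end of its coding sequence, and what this does to its value per kb was not tested. In AxR no library held more than 1.12 counts of a member, and the levels could not be ordered. Summed over the 3 genes, the P libraries held 155.77, 193.06 and 155.97 counts, and the AxR libraries 2.12, 1 and 0. AxR libraries were as deep as P libraries (15495260 to 17294525 counts over all 6), and 3 counts in a library correspond to 0.171 to 0.196 CPM.

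The log2 fold changes of the edgeR fit (AxR minus P) were -7.78 for Zfp978 (rank 24 from the lowest of 13550 genes tested), -6.75 for Zfp988 (rank 40) and -5.25 for Zfp982 (rank 59). With 1 AxR read each, these sizes depend on the small prior count that the fit adds, and the genes passed the low-count filter through their P libraries alone. Across all genes tested, 30.8% were called lower and 32.8% higher in AxR at an adjusted p under 0.05 (63.5% in all), and 4.72% were called lower by a log2 fold change of at least 1. Every AxR library lay below every P library in 33.2% of genes and above it in 35.1%. A gene that was present in P and near 0 in AxR was far less common. 85 of the 13550 genes (0.627%) had at least 10 counts in every P library and at most 3 in every AxR library, and the 3 genes are among them because of how they were picked.

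How far reads can be placed differed between the members. RSEM, the program that made the counts, divides a read that matches several genes among them, which leaves values that are not whole. Of the 31-base words in the Zfp982 transcripts, 70.3% were found in no other gene, and its count was not whole in 1 of 6 libraries. For Zfp988 the share was 20.5% with 3 such libraries, and for Zfp978 it was 14.5% with 4. Zfp978 shared 63.2% of its words with Zfp600, 61.5% with Rex2, 50.8% with Zfp979 and 45.4% with Zfp980. Zfp988 shared 65.9% with Zfp987, 55.3% with Zfp534, 43.1% with Zfp986 and 39.2% with Zfp989. Zfp982 shared at most 14.3% with another Zfp gene of the cluster or Rex2 (Zfp989). Shared words were not counted against Gm13212, the pseudogenes or genes elsewhere. Gm13212 was 91.5% identical to Zfp982 in coding sequence. Coding identity to Zfp978 was 98.0% for Rex2, 97.9% for Zfp600 and 97.6% for Zfp980, against 84.3% for Zfp988 and 78.6% for Zfp982. The division of P reads among Zfp978, Rex2, Zfp600, Zfp980 and Zfp979 is therefore uncertain. The same holds among Zfp988, Zfp987, Zfp534, Zfp986 and Zfp989. The reads were placed on the reference genome, whose strain is not BALB/c, and which copies 4T1 carries was not measured.

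**Figure D2:**
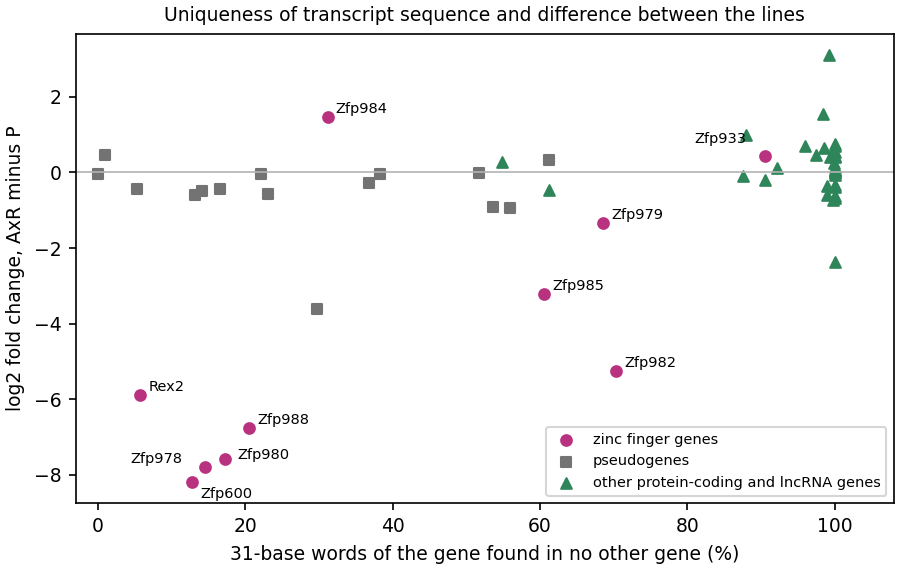
Share of each gene's 31-base words found in no other gene (horizontal axis, percent) against its log2 fold change, AxR minus P (vertical axis), for the tested genes within 2 Mb of the 3 genes. Zfp982, with 70.3% of its words unique, lies at -5.25, and Zfp984, with 31.2%, at 1.46.

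The 3 genes stand in a run of related copies. Within 2 Mb on each side there were 20 zinc finger genes, 16 on the plus and 4 on the minus strand, and a KRAB pattern matched in 19 of them, the exception being Zfp933. 18 of the 20 had more than 3 counts in a P library, and 6 had more than 3 in an AxR library. 12 were above 3 in P and at or under 3 in every AxR library, 8 had no AxR count, and Zfp990 and Zfp991 were at or under 3 in all 6 libraries. The share of all genes with such counts was not computed, so these numbers cannot be called unusual. By the stricter rule of at least 10 counts in every P library, 6 of the 20 (10 of them tested) qualified, the 3 chosen ones included. That rule held for 0.627% of all genes tested. The 13 zinc finger genes from Zfp980 to Zfp982, over 1.84 Mb, were all at or under 3 counts in every AxR library. Their summed counts were 280.59, 305.54 and 279.00 in P and 3.13, 3.34 and 1.02 in AxR, which includes the 3 genes themselves. Other genes of that span did hold AxR counts. Among them, named after their values were seen, are the pseudogenes Gm13237 (324.82, 228.09 and 226.53) and Gm13034 (144.67, 117.72 and 135.7). Of their words, 0.992% and 16.6% were unique.

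Zfp600, with 17 finger matches in its coding sequence, had 50.24, 31.1 and 27.31 counts in P and 0 in every AxR library. It was at least 35.9-fold lower in AxR, counted against a floor of 3 reads over the group. This floor and those below take the P sum as it stands, so counting error in P is left out. Zfp980 had 22.85, 21.22 and 27.09 counts against 0, 0 and 0, at least 23.6-fold lower. Rex2 had 17.39, 33.52 and 30.06 counts against 0, 0 and 1.02, a ratio of 80.8 (14.1 to 3232). In all 3 genes every AxR library lay below every P library. They passed the low-count filter through P alone and had to differ, so no p is given for them, and part of their reads may be shared with Zfp978. Some genes of the run were too low to be tested. By the same floor, Zfp986 was at least 9.31-fold, Zfp992 at least 7.32-fold and Zfp989 at least 5.32-fold lower. Of the Zfp986 words, 6.26% were unique, and its coding sequence was 99.3% identical to that of Zfp988. Zfp981 had 10.56, 4.36 and 9.62 counts against 1.01, 0 and 0. Zfp987 and Zfp993 exceeded 3 counts in a single P library each, both stayed at or under 3 in AxR, and the lines overlapped.

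**Figure D3:**
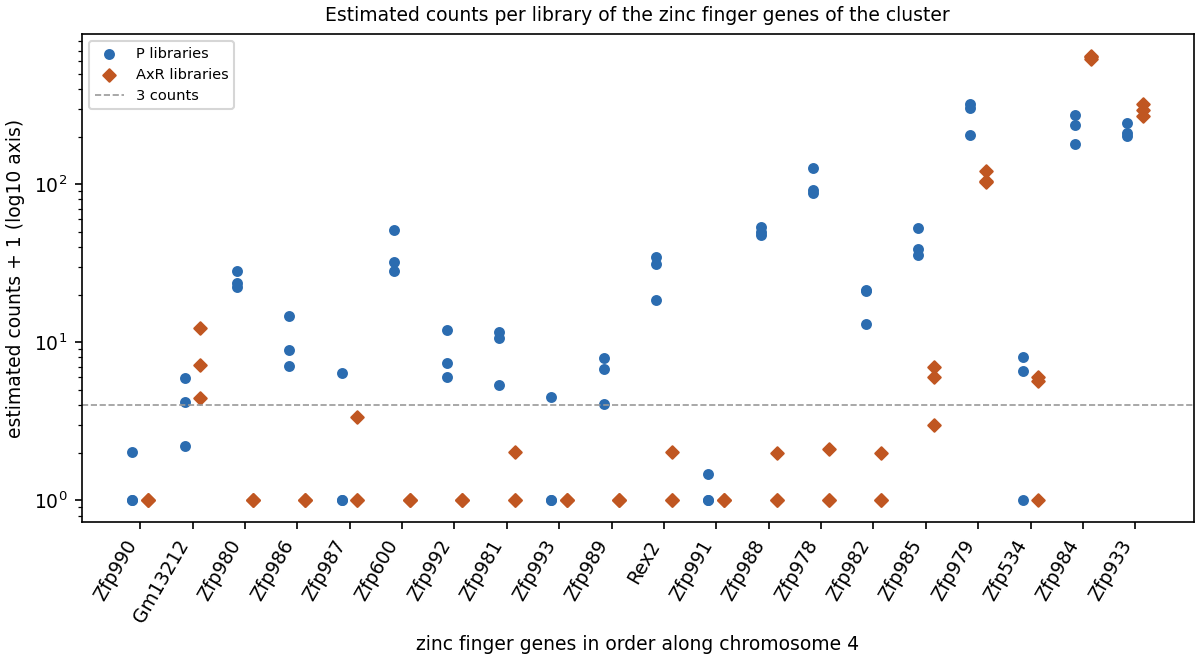
Estimated counts plus 1 (log10 axis) of the 20 zinc finger genes in their order along chromosome 4, with P libraries as circles and AxR libraries as diamonds. The dashed line marks 3 counts. From Zfp980 to Zfp982 all AxR points lie under the line, and from Zfp985 on they lie above it or cross it.

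Past Zfp982 the difference became smaller from one tested gene to the next and then turned. Zfp985, the next gene (60.6% of words unique), had 38, 52 and 34.4 counts in P and 5.01, 2 and 6.01 in AxR. Its log2 fold change was -3.21 (SE 0.352). Zfp985 also passed the low-count filter through P alone, so no p is given for it. Zfp979, on the minus strand, had 319.61, 202.47 and 302.02 counts against 102.87, 104 and 119.98, a log2 fold change of -1.34 (SE 0.194, edgeR adjusted p = 0.000164). Of the Zfp979 words, 68.6% were unique, and part of its reads may be shared with Zfp978. Zfp985 and Zfp979 both fell with no overlap between the lines. Zfp534 was too low to be tested, with 7.09, 5.6 and 0 counts in P and 5, 4.66 and 0 in AxR.

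Zfp984 rose. It had 272.71, 178.02 and 236.91 counts in P and 646.05, 618.02 and 633.09 in AxR, a log2 fold change of 1.46 (SE 0.142, edgeR adjusted p = 8.42e-06). Its mean was 14.1 ± 3.37 CPM in P and 38.8 ± 2.56 CPM in AxR (SD, n = 3 each), and per kilobase it stood at 4.84 CPM per kb in P, beside 4.79 for Zfp978, and at 13.3 in AxR, the highest of the cluster. Its counts were not whole in any of the 6 libraries, and 31.2% of its words were unique. Zfp933, the last zinc finger gene, had 200, 243 and 210 counts against 269, 295 and 320, a log2 fold change of 0.44 (SE 0.0893, edgeR adjusted p = 0.00051), with 90.6% of words unique. At the other end of the cluster, Gm13212 had 4.9, 1.2 and 3.19 counts in P and 3.46, 6.16 and 11.25 in AxR, where the lines overlapped.

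Of the 7 tested zinc finger genes of the cluster other than the 3 chosen ones, 5 were called lower and 2 higher. Over all genes tested, 30.8% were lower and 32.8% higher. Of the lower ones, Zfp980, Zfp600, Rex2 and Zfp985 passed the low-count filter through P alone, so their calls carry little weight. The remaining lower gene is Zfp979, and part of its reads may be shared with Zfp978. It holds 50.8% of the Zfp978 words, and its counts were not whole in 5 of 6 libraries. Summed over all 20 genes, the level was 68.3, 57.0 and 69.4 CPM in P and 65.7, 65.9 and 62.1 CPM in AxR. The sums overlapped between the lines, with Zfp984, Zfp979 and Zfp933 holding most of the counts in both.

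Genes without zinc fingers in the neighbourhood went both ways. The region within 2 Mb held 156 annotated genes, of which 103 had any count and 59 were tested. Among the 49 tested genes that were not zinc finger genes, 12 (24.5%) were lower and 16 (32.7%) higher. Over all genes tested, 30.8% were lower and 32.8% higher. The median log2 fold change was -0.01, beside 0.01 over all genes tested. The nearest tested genes inside the cluster were mostly processed pseudogenes. Gm13135, just before Zfp988, had a log2 fold change of -0.50 (SE 0.0985), Gm13142 of -0.95 (SE 0.239) and Gm13136 of -0.58 (SE 0.109), and all 3 were called lower. The values were -0.27 for Gm13140 and -0.47 for the long non-coding RNA Gm16211, with edgeR adjusted p of 0.297 and 0.268. Gm13147, a transcribed pseudogene between Rex2 and Zfp988, had 10.2, 17.63 and 12.79 counts in P and 1.69, 0 and 1.15 in AxR (log2 fold change -3.61, SE 0.625). Over the 15 tested pseudogenes of the region, 6 (40.0%) were lower and 1 (6.67%) higher with a median of -0.44. Many of these pseudogenes share most of their words with other genes. Between Zfp988 and Zfp982, the pseudogenes Gm8178 and Gm13161 had at most 3.5 counts in any library.

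The protein-coding genes beyond Zfp933 went both ways. The values named here were chosen after they were seen. Miip had a log2 fold change of 0.40, Fv1, a gene that restricts retroviruses in mice, of 0.24 (edgeR adjusted p = 0.189), and Mfn2, a mitochondrial fusion gene, of -0.01 (edgeR adjusted p = 0.855). Nppb, which codes for a natriuretic peptide, had 15, 12 and 11 counts in P and 3, 2 and 2 in AxR. Angptl7 had 3, 5 and 0 counts in P and 27, 26 and 18 in AxR, and Pgd, an enzyme of the pentose phosphate pathway, rose by a log2 fold change of 1.54. Of the 29 tested protein-coding neighbours without zinc fingers, 6 (20.7%) were lower and 13 (44.8%) higher, with a median of 0.13. The shares over all genes tested were 30.8% and 32.8%.

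**Figure D4:**
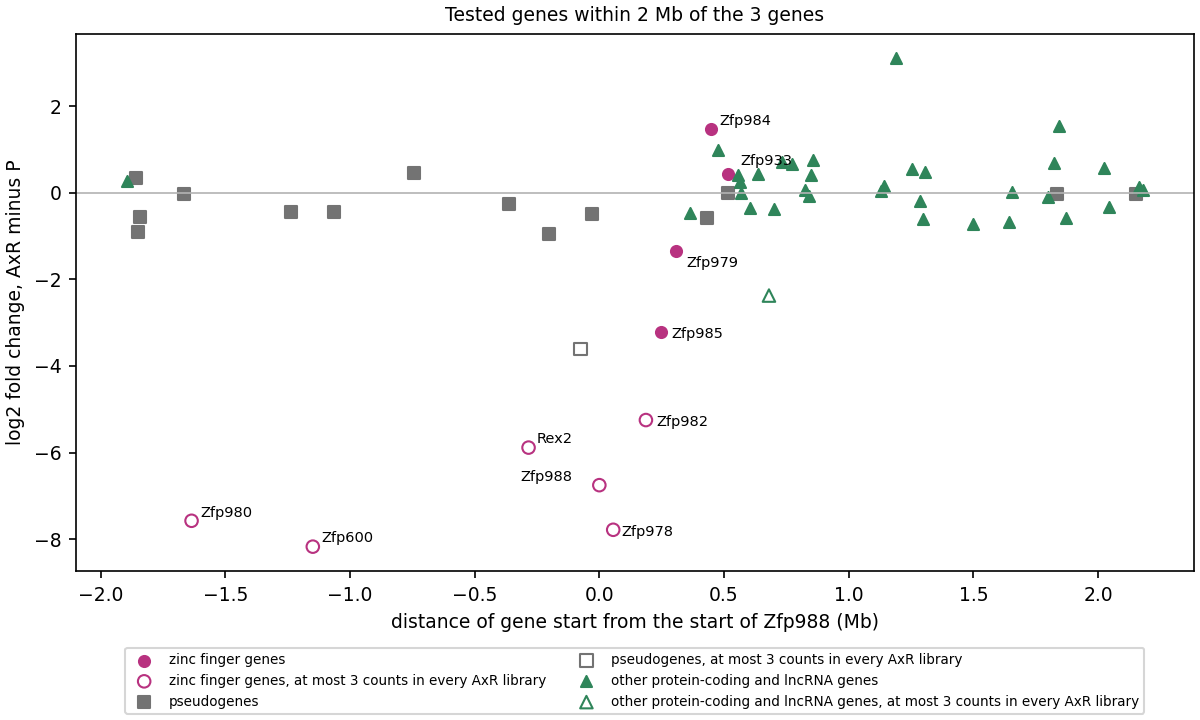
Log2 fold change, AxR minus P (vertical axis), of the 59 tested genes within 2 Mb, by the distance of their start from the start of Zfp988 (horizontal axis, Mb). Open symbols are genes with at most 3 counts in every AxR library, whose fold changes depend on the prior count. The open zinc finger symbols run from Zfp980 to Zfp982, and the other protein-coding and long non-coding genes, nearly all on the right, lie on both sides of 0.

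8 of the 85 genes present in P and near 0 in AxR lay among these 59 tested neighbours (13.6% of them). They were the 3 chosen genes, Zfp980, Zfp600, Rex2, Gm13147 and Nppb. The 3 chosen genes were picked for this fall, and the window was drawn around them. Part of the reads of Zfp980, Zfp600 and Rex2 may be shared with Zfp978. The 13.6% is therefore a description only, and its difference from the 0.627% over all genes tested was not tested. 13 of the 85 were on chromosome 4. In the opposite direction, 78 genes (0.576%) had at least 10 counts in every AxR library and at most 3 in every P library, and 0 of them lay in the neighbourhood. Over the whole of chromosome 4, 195 of 864 tested genes were lower and 333 higher, with a median log2 fold change of 0.09.

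Zinc finger genes elsewhere in the genome went both ways. Of 356 genes outside the neighbourhood whose symbol is Zfp with a number, 300 were tested. Of these, 100 (33.3%) were lower and 75 (25.0%) higher, beside 30.8% and 32.8% over all genes tested. The median log2 fold change was -0.05. Among the 114 with a KRAB match, 45 (39.5%) were lower and 31 (27.2%) higher with a median of -0.05. Of all 300 tested, with or without a KRAB match, 3 were present in P and near 0 in AxR, namely Zfp647, Zfp711 and Zfp882. Over all genes tested the share was 0.627%. The largest falls among those with at least 2 CPM in the higher line were those of Zfp57 (log2 fold change -2.38, SE 0.175), which guards imprinted genes, Zfp810 (-2.23, SE 0.120) and Zfp953 (-1.45, SE 0.214). The largest rises were those of Zfp469 (3.10, SE 0.135), Zfp13 (2.92, SE 0.240) and Zfp773 (1.86, SE 0.273). Zfp469 is annotated as a long non-coding RNA and is counted here by its symbol only. All 6 were called by edgeR, but Zfp13 and Zfp773 passed the low-count filter through AxR alone, so their calls carry little weight. A list of 11 KRAB zinc finger genes of known function, written with earlier results known, had 9 tested genes. Of these, 6 (66.7%) were lower and 1 (11.1%) higher (Zfp568, 0.33), with a median of -0.33. Over all genes tested, the shares were 30.8% and 32.8%. The 6 include Zfp600 and Rex2, which passed the low-count filter through P alone and may hold reads of Zfp978. The count and the median are therefore a description only.

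The cofactors through which KRAB proteins act were expressed in both lines. All 25 genes of a list of this silencing machinery were tested. Of them, 5 (20.0%) were lower and 12 (48.0%) higher, with a median of 0.14. Over all genes tested, 30.8% were lower and 32.8% higher. The largest changes were in Suv39h1 (1.22, SE 0.0729) and Dnmt3b (-0.91, SE 0.204), a histone H3K9 and a DNA methyltransferase, and in Atf7ip (0.80, SE 0.0645), a partner of SETDB1, and Chd4 (0.70, SE 0.0504), a chromatin remodeller. Trim28 had 2872, 3188 and 2604 counts in P and 3744, 3591 and 4397 in AxR, a log2 fold change of 0.44 (SE 0.0520), and Setdb1 one of 0.31 (SE 0.0516). Both were named for their role.

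**Figure D5:**
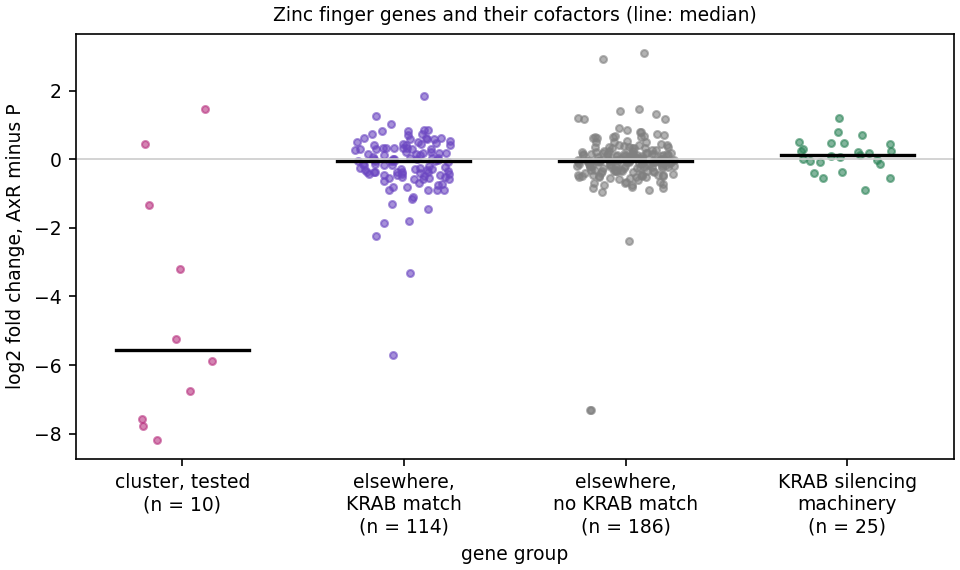
Log2 fold change, AxR minus P (vertical axis), of single genes (points) in 4 groups, with the median as a line. The 10 tested cluster genes, which include the 3 chosen ones, reach from -8.17 to 1.46, while zinc finger genes elsewhere and the cofactors have medians of -0.05 and 0.14.

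Of a list of 10 pluripotency genes, chosen because Zfp982 has been studied in stem cells, 2 had enough counts to be tested. Klf4 rose by 0.34 on the log2 scale (SE 0.0778, edgeR adjusted p = 0.0014), and Tfcp2l1 had a value of -0.34 (SE 0.193, edgeR adjusted p = 0.135). None of the list was called lower by edgeR, and none by DESeq2 or at an unadjusted p under 0.05 (0 genes each). Nanog had at most 2 counts in a library, and Zfp42 and Dppa3 had 0 in all 6, so that a link to these genes could not be examined here.

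The genes whose profile over the 6 libraries was nearest to the mean profile of the 3 members, by Euclidean distance between centred log2 CPM values, were Lcp1, an actin-bundling protein (distance 0.252), Samd5 (0.336), Rasef, a Rab-like GTPase (0.345), Rbpms, an RNA-binding protein (0.363), and Serpinb2, a protease inhibitor (0.388). Lcp1 had 1892, 2122 and 1999 counts in P and 94, 81 and 83.95 in AxR. Samd5 had 37, 44 and 44 counts in P and 0 in every AxR library. Rasef is also on chromosome 4, outside the neighbourhood, and the others are on chromosomes 14, 10, 8 and 1. With 6 libraries in 2 lines, such a distance mostly reads the size of the difference between the lines.

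The label of the cells was checked against markers. The 8 mammary epithelial markers summed to 1943 to 2171 CPM in P and 3037 to 3210 CPM in AxR. Of them, 6 were higher and 2 lower (32.8% and 30.8% over all genes tested). The 2 lower ones were Cldn7 (log2 fold change -3.43, SE 0.205) and Cldn3 (-0.94, SE 0.0788). Leukocyte, endothelial, fibroblast and lung epithelial markers summed to at most 0.851 CPM per list in any library, and none of them had enough counts to be tested. Ptprc had at most 2 counts in a library, and Tyrobp, Cd3e, Kdr, Lum and Scgb1a1 had 0 in all 6. A few held low counts. Pdgfrb had 0, 0 and 0 in P and 5, 6 and 4 in AxR. Cdh5 had 7, 4 and 5 against 0, 0 and 1, and Col1a1 14, 10 and 3 against 4, 5 and 3.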

How the data were processed

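RNA from 3 P and 3 AxR libraries was profiled with stranded, poly(A)-selected RNA-seq. Per the labels and the methods of the study, the authors used STAR 2.6.0a for alignment to GRCm38, with genes from GENCODE M16, and deposited estimated counts per gene from RSEM 1.3.1, neither filtered nor normalized. RSEM splits reads that fit several genes, which left 10.3% to 10.7% of a library's values with a fraction. Counts were rounded, filtered with filterByExpr and normalized by upper quartile, and edgeR 4.0.16 (R 4.3.3) gave robust quasi-likelihood tests of AxR against P, with Benjamini-Hochberg adjustment over the 13550 genes tested and a threshold of 0.05. The tested genes held 99.9% of the counts.

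CPM were computed with the upper quartile factors. Groups came from the sample titles. Library totals were 15495260 to 17294525. Intervals cover counting error only, and floors (3 counts) cover it for the AxR reads alone. Gene positions, exon lengths, coding sequences and the 31-base words were taken from GENCODE M21 (GRCm38, newer than M16), matched by Ensembl ID for 53274 genes, and promoters from RefSeq (GRCm38.p6). No table of proteins was used here, so fingers were counted in translated M21 coding sequences (at least 3 C2H2 matches, or a Zfp symbol or Rex2) in place of RefSeq proteins. The named genes were the 3 members, every tested zinc finger gene within 2 Mb, the nearest 5 tested genes on each side of a member, the 4 largest changes among called silencing cofactors, the tested pluripotency genes, the 5 nearest profiles, and the 3 largest falls and rises of zinc finger genes elsewhere. A few others are marked in the text. The members and lists were chosen with earlier results of these data known. The scripts were tested on simulated data. Alternatives were TMM, library size only, DESeq2 1.42.0, no low-count filter, a replicate block, each library left out, a fold threshold and windows of 1 and 5 Mb.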

Additional observations from a re-analysis of the deposited data

How the results depend on the processing

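The direction of every result held under every alternative, except that the median log2 fold change of the neighbours, -0.04 within 2 Mb, was 0.066 within 5 Mb. It was -0.42 without a low-count filter, and between -0.123 and -0.046 with 1 library left out. For 51 single genes (the named genes other than the 3 members, and the whole cofactor list), 554 values kept their call, 7 passed the threshold only under an alternative (for Cbx1, Tfcp2l1, Hdac1, Ehmt1, Fam208a and Gm13140), and 0 lost it. With a log2 fold change of at least 1 also required, 640 genes were lower and 1083 higher over all genes, 10 neighbours were lower and 3 higher, 1 cluster gene was higher, 12 zinc finger genes elsewhere were lower and 11 higher, 0 cofactors were lower and 1 higher, and 0 pluripotency genes were higher, by construction fewer. 13 neighbours were lower within 1 Mb and 42 were higher within 5 Mb. The fitted log2 fold changes of the members moved with their single AxR reads: with 1 library left out, Zfp978 lay between -9.67 and -7.29, Zfp982 between -7.13 and -4.75 and Zfp988 between -8.64 and -6.25, the lowest each time without the AxR library that held the read. DESeq2 gave -8.15 for Zfp978 and -7.12 for Zfp988. The pluripotency list had 0 or 1 gene lower with 1 library left out, the 1 being Tfcp2l1 without P replicate 2. Same-numbered libraries did not deviate together (correlations of -0.021, -0.006 and -0.022), so the numbers do not pair them. With a replicate block, 4023 genes were lower and 4304 higher, against 4167 and 4441. In AxR each member rests on 1 read, so depth limits their ratios.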

Other observations

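On 11 of 12 chromosomes with at least 8 tested zinc finger genes outside the neighbourhood, the median log2 fold change of these genes had the same sign as that of all tested genes of the chromosome. The exception was chromosome 6, with 5 of 16 lower and 2 higher (median -0.10, chromosome 0.01). The medians were near 0 on chromosome 2 (-0.01, chromosome -0.09) and chromosome 15 (0.03, chromosome 0.12). On chromosome 13, 18 of 27 tested zinc finger genes were lower and 0 higher, with a median log2 fold change of -0.46 beside -0.27 over all tested genes of that chromosome. On chromosome 9, 13 of 16 were lower and 0 higher (median -0.40, chromosome -0.23), and on chromosome 5, 11 of 15 were lower and 0 higher (median -0.35, chromosome -0.16). On chromosome 17, 8 of 38 were lower and 20 higher (median 0.30, chromosome 0.18), and on chromosome 7, 9 of 80 were lower and 25 higher (median 0.09, chromosome 0.18). Over all genes tested, 30.8% were lower and 32.8% higher. Here too the genes of a chromosome can share reads within a cluster, and no test of the difference between chromosomes was run. Beyond the neighbourhood on the centromeric side of chromosome 4, Dhrs3, which codes for a retinal reductase, had a log2 fold change of 3.62, Tnfrsf1b of 1.15 and Vps13d of 0.15, named after their values were seen.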
